A study of Mus musculus with 6 samples.

Results

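A set of 60 genes whose products process ribosomal RNA and assemble ribosomal subunits in the nucleolus was followed in mouse DN3 thymocytes, T-cell precursors at the third stage before CD4 and CD8 appear on the surface. The 60 genes were chosen by symbol, with earlier results of these data known. Each was found among the 21135 genes of the deposited table and among the 17815 genes that were abundant enough to be tested. The study sequenced RNA of 6 libraries from C57BL/6 mice. In 3 libraries NMe, the NOTCH-bound enhancer of Myc, was wild type, and in the other 3 it was homozygous for mutations of GATA sites 1 and 2. No other allele, no treatment and no age is named in the labels for either genotype. Whether each library is a separate animal is not stated, and all p-values below therefore rest on library-to-library spread that may be technical. Library size ranged from 38.6 to 51.3 M reads. Levels are normalised reads, that is reads divided by a size factor for each library, and their errors are standard deviations over 3 libraries.

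Ribosomal RNA is transcribed in the nucleolus as a long precursor that carries the RNA of both subunits. Small nucleolar RNAs in protein particles, the snoRNPs, guide its methylation and pseudouridylation, while the small-subunit processome folds and cuts the 18S part and a separate set of factors builds the large subunit. Proliferating thymocytes need many new ribosomes, and genes of this pathway are known targets of the MYC transcription factor, which binds the E-box CACGTG.

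Most genes of the pathway were lower in the mutant libraries, at each of its steps. Of the 60 genes, 56 fell and none rose past an adjusted p of 0.05 in limma's test, in which 18.8% of all tested genes changed, 10.9% lower and 7.94% higher. With every library scaled to the same total, 55 of the 60 fell, and over all genes 1827 rose and 1647 fell, against 1414 that rose and 1938 that fell with the authors' scaling. The median log2 change of the 60 genes was -0.80, from -1.40 for Npm1 to -0.06 for Ddx52, beside a median of 0.03 over all tested genes. For 58 of them every mutant library lay below every wild-type library, and the exceptions were Imp3 and Ddx52. This separation held for 20.3% of all tested genes. In all, 11 of the 60 fell at least 2-fold, namely Dkc1, Nat10, Rrp12, Wdr12, Noc2l, Rrp1b, Gnl3, Grwd1, Ncl, Npm1 and Nolc1, and 2.5% of all tested genes did so. Since this is bulk RNA, fewer cells of a type and less of these RNAs per cell cannot be told apart.

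**Figure D1:**
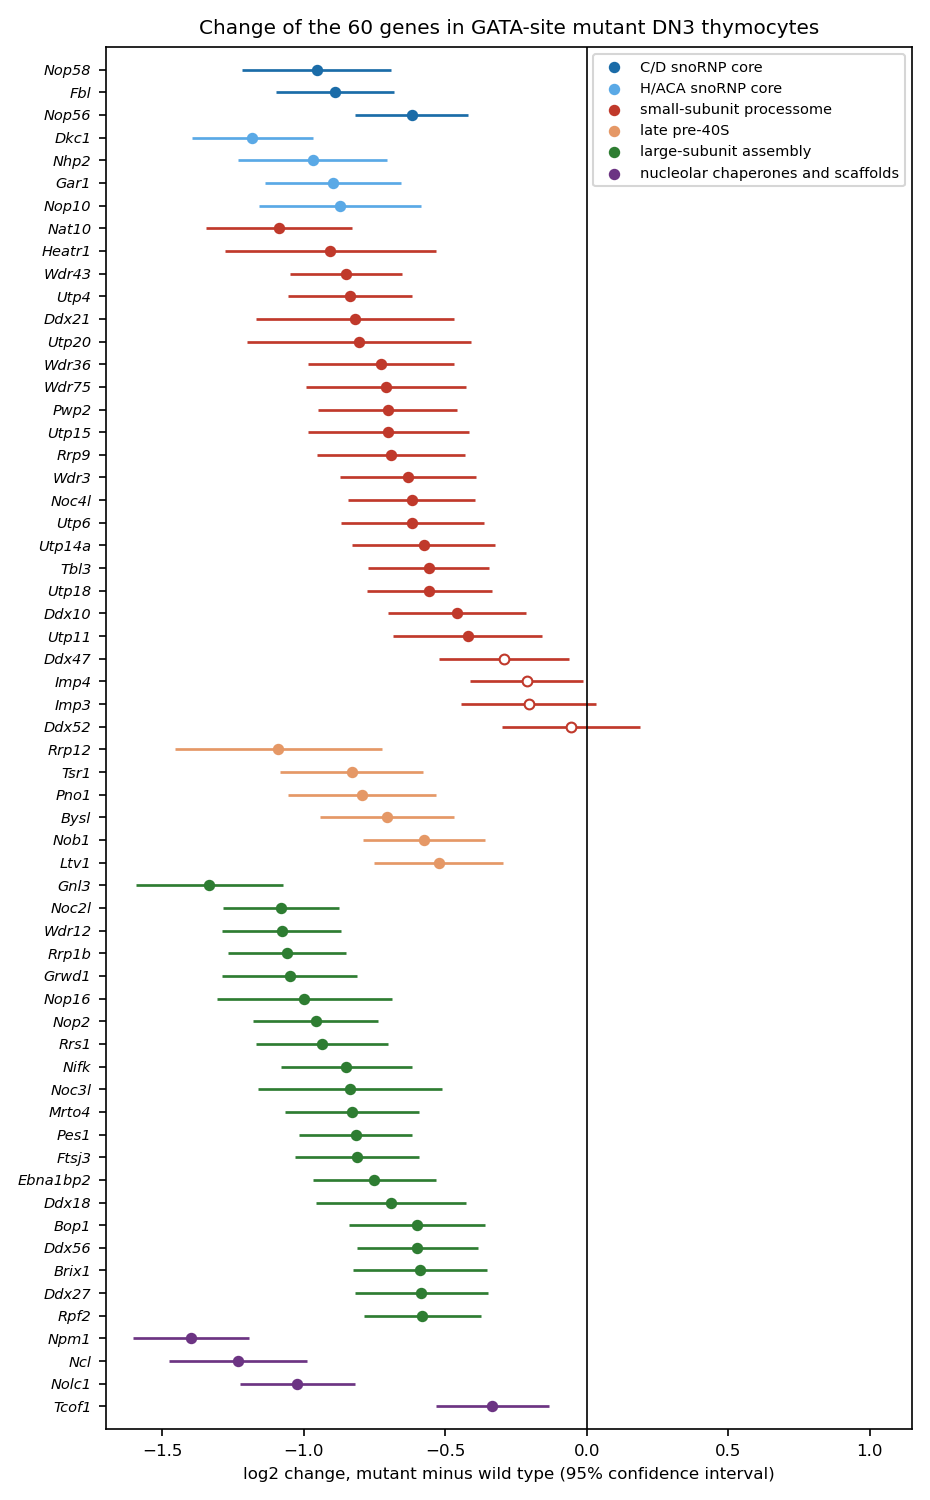
Log2 change (mutant minus wild type) of each of the 60 genes with its 95% confidence interval from limma, coloured by step and sorted within it; filled points fell at an adjusted p of 0.05 and open points did not pass. All points lie left of 0 with the authors' scaling (Ddx52 moves to 0.0031 with equal totals), and the 4 open points, Ddx47, Imp4, Imp3 and Ddx52, belong to the small-subunit processome.

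Together the 60 genes held 1.12%, 1.2% and 1.26% of all reads when NMe was wild type and 0.673%, 0.683% and 0.710% when it was mutated. The mean share was 1.19% ± 0.069 (SD, n = 3) in wild type and 0.689% ± 0.0195 (SD, n = 3) in the mutant, so the groups did not overlap. Without Npm1 and Ncl, which are the most abundant of the genes, the shares were 0.953% and 0.587%.

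Myc itself read 18041, 19223 and 20196 in wild type and 5562, 4612 and 6165 in the mutant. Its log2 change was -1.82 ± 0.12 (SE, limma adjusted p = 4.22e-05), larger than that of any of the 60 genes. The libraries did not all stand alike in other respects. Wild-type library 3 stood apart from the other two wild-type libraries on the second principal component (-55.1 against 33.9 and 23.4, a component with 17.1% of the variance), and it held the highest wild-type value for 41 of the 60 genes. Wild-type library 1 held the lowest wild-type value for 53. Without wild-type library 3, 53 of the 60 genes fell, and over all tested genes 1341 fell, against 1938 with all libraries. Wild-type library 2 held 8177 normalised reads of erythroid genes, while the rest of its group had 16.0 and 61.5 and the mutants 34.2 to 56.1. Without it 54 of the 60 genes fell, while the count over all genes dropped from 3352 to 1905.

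The labelled cell type was checked against its markers. All 10 genes of the DN3 and T-lineage list were present. Of these 7 rose, among them Il2ra, the alpha chain of the interleukin-2 receptor (log2 change 0.85 ± 0.09, limma adjusted p = 0.000364), and 1 fell, Rag1, a recombinase subunit (-0.58 ± 0.10, limma adjusted p = 0.0035). The count of 7 rested on several libraries: 4 rose without wild-type library 1 or 2, 3 without mutant library 1, and 2, Il2ra and Dtx1, without wild-type library 3 or mutant library 2. Their summed level was 344287 to 377140 in wild type and 460808 to 571711 in the mutant. Genes of natural killer and gamma-delta T cells summed to 24502 to 30719 in wild type and 37812 to 54942 in the mutant, and Nkg7, Trdc and Sox13 rose of the 5 tested, while Ncr1 and Klrd1 were not listed. Genes of earlier progenitors summed to 4371 to 5190 in wild type and 2768 to 3847 in the mutant, but only 4 of the 8 were lower in the mutant, with a median log2 change of -0.18 and values up to 0.69. Bcl11a and Mef2c fell, and Mef2c lost its call without wild-type library 1 or 3 or mutant library 1, while Kit also fell without mutant library 2. In the B-cell, myeloid and erythroid lists none passed with all libraries, and without wild-type library 3 the myeloid gene Cd74 and the globin gene Hbb-bt fell. Of 3 tested stromal and endothelial genes 1 rose, Pecam1 (limma adjusted p = 0.0324), a call lost when any library except mutant 3 was left out (limma adjusted p 0.0509 to 0.108). The B-cell genes Ms4a1 and Pax5 and the stromal genes Foxn1, Krt5, Krt8, Col1a2 and Pdgfra were not listed. The part of these cell types in the fall of the 60 genes was not tested.

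**Figure D2:**
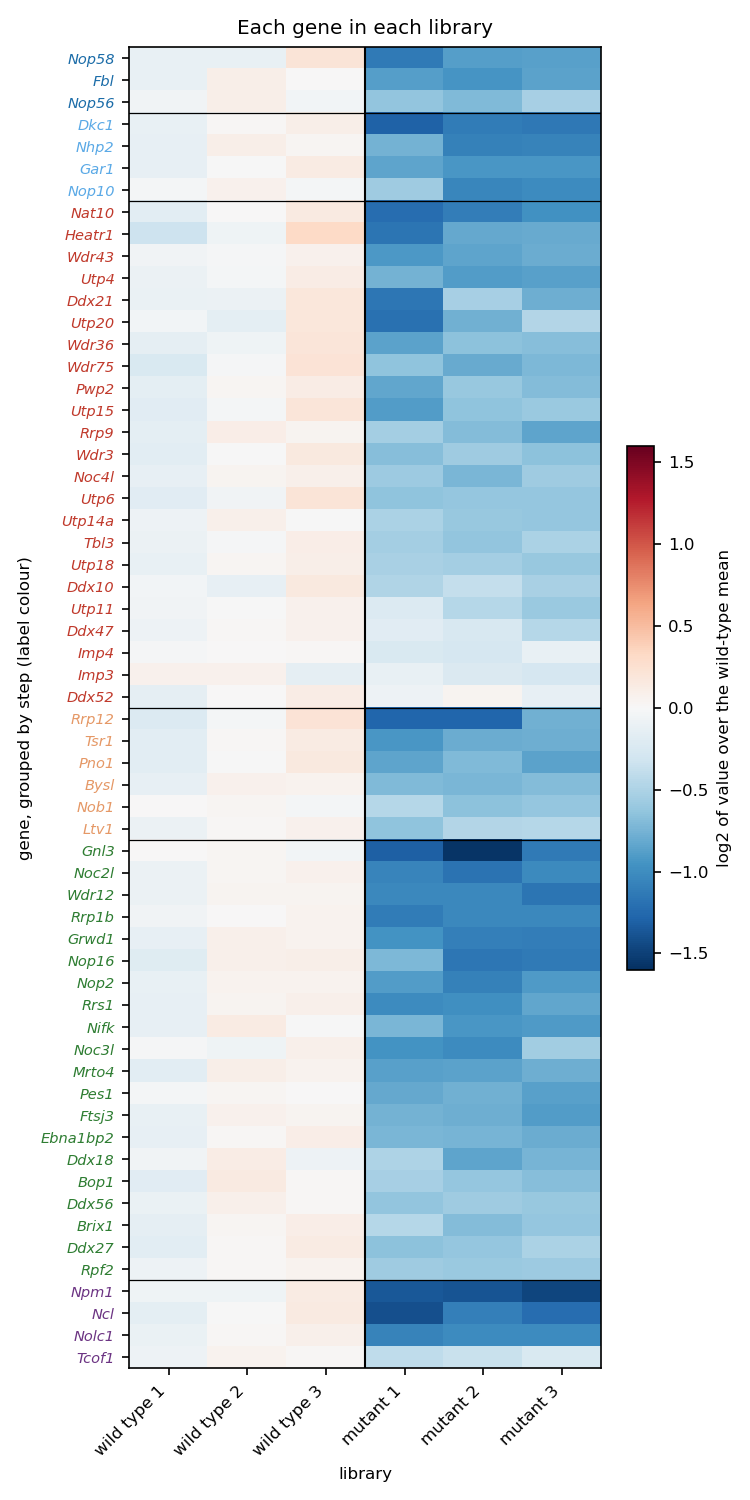
Log2 of each library's value over the wild-type mean for the 60 genes, grouped by step, with wild-type libraries on the left and mutant libraries on the right; blue is below the wild-type mean and red above it. The 3 mutant columns are blue for nearly every gene, most deeply for Gnl3, Npm1 and Ncl, and pale for Imp3, Imp4 and Ddx52.

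Promoter sequence was read from RefSeq on GRCm38.p6 as the 250 bases before and the 50 bases after each start. A promoter was matched for 50 of the 60 genes. Bop1, Fbl, Npm1, Rrp12, Rrs1, Tbl3, Tcof1, Utp11, Utp6 and Wdr36 did not. The motifs searched on both strands were CACGTG, the E-box that MYC binds, CCGGAAG, a core that ETS factors bind, and AGATAA, a core that GATA factors bind. CACGTG lay in the promoters of 12 of the 50 genes, which is 24.0% (exact Clopper-Pearson 95% interval 13.1% to 38.2%, for counting error only). The genes were chosen by symbol, so the interval is no test against other genes. The share was 11.5% among 10754 tested genes with a promoter and 7.15% among all 32851 promoters of the same length. For each motif a gene counted when any of its promoters held it, while shares of all promoters count single promoters. As single promoters, 13 of 55 of these genes' promoters held CACGTG, or 23.6%. By position, in the 50 bases after the start, a window chosen after the positions had been seen, 9 of the 50 genes held the E-box, or 18%, against 1.87% of the tested genes. Upstream it was 8.0% against 9.62%. The E-box is shown in capitals with its flanks, 5′ to 3′ on the gene's strand, for the 9 genes whose window of 30 bases lies within the promoter. These are not the same 9 genes as those with an E-box after the start. The E-boxes shown for Rpf2, Utp18, Nop2 and Imp4 lie before the start, at -26, -20, -60 and -121. Grwd1, Pno1 and Utp20 hold the E-box after the start and are not shown.
Pes1, chr11:3963965-3963994, plus strand: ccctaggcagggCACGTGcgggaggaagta
Utp4, chr8:106893643-106893672, plus strand: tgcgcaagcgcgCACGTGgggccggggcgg
Wdr43, chr17:71616220-71616249, plus strand: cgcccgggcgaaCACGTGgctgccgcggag
Tsr1, chr11:74898092-74898121, plus strand: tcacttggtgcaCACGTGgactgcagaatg
Ltv1, chr10:13193092-13193121, minus strand: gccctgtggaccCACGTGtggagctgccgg
Rpf2, chr10:40246988-40247017, minus strand: aagtaatcggtaCACGTGcattcgctaagg
Utp18, chr11:93885769-93885798, minus strand: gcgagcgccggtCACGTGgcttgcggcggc
Nop2, chr6:125131811-125131840, plus strand: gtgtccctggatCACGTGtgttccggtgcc
Imp4, chr1:34439696-34439725, plus strand: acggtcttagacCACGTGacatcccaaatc
These windows share the 6 bases of the motif. Genes with the E-box had a median log2 change of -0.81 (12 genes) and those without it -0.78 (38 genes), and the medians lay close together. Imp4 has the motif and did not pass the test.

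CCGGAAG was found in 20 of the 50 promoters, or 40%, against 19.7% of tested genes and 8.86% of all promoters. Its carriers had a median log2 change of -0.79 and the other genes -0.81. AGATAA was found in none of the 50, against 8.09% of tested genes and 11.2% of all promoters. The absence says only that these letters are not in this window. A few promoters show the range, with both motifs in capitals on either strand, each as the 250 bases before the start. Nop2 holds CACGTG and CCGGAAG, Gar1 holds CCGGAAG on the other strand, and Dkc1 and Ddx52 hold neither, although Dkc1 fell 2.27-fold and Ddx52 did not pass.
Nop2, chr6:125131633-125131882, plus strand: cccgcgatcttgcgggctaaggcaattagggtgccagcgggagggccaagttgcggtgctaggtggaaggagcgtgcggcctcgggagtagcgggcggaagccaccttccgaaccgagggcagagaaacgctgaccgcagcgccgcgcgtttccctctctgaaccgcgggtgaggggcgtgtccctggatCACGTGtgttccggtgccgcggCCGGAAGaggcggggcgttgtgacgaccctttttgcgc
Gar1, chr3:129831397-129831646, minus strand: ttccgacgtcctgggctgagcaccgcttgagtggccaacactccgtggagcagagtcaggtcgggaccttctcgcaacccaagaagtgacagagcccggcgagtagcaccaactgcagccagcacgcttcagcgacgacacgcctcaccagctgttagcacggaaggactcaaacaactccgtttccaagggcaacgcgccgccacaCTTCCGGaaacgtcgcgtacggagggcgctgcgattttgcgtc
Dkc1, chrX:75095604-75095853, plus strand: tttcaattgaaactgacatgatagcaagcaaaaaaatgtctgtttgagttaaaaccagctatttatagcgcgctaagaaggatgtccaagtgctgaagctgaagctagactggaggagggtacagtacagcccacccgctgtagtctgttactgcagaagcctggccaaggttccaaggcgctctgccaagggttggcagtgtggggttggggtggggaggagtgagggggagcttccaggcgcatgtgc
Ddx52, chr11:83941840-83942089, plus strand: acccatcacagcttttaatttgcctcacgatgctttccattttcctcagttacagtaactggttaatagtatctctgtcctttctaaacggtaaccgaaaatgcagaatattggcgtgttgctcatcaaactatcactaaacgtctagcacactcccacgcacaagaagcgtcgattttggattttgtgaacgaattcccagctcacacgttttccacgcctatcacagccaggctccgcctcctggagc

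The first step is modification of the ribosomal RNA by snoRNPs. All 7 core genes of both kinds of particle fell. In the C/D particle, which adds methyl groups, Fbl encodes the methyltransferase fibrillarin and lies at chr7:28169710-28179269 in GRCm38. It read 10287, 11912 and 11205 in wild type and 6052, 5806 and 6129 in the mutant. All 3 mutant libraries were lower, with a log2 change of -0.89 ± 0.09 (SE, limma adjusted p = 0.000339). Nop58, a scaffold of the same particle (chr1:59684971-59719044), read 13980, 13997 and 17487 against 6934, 8194 and 8270. Its log2 change was -0.95 ± 0.12 (limma adjusted p = 0.00071). Nop56, the other scaffold, read 28925, 31954 and 29128 against 19391, 18395 and 20818. It fell less, by 0.62 ± 0.09 on the log2 scale (limma adjusted p = 0.00154), also without overlap.

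The H/ACA particle, which converts uridine to pseudouridine, also fell, with a median log2 change of -0.93 over its 4 genes beside -0.89 over the 3 of the C/D particle. Dkc1 encodes dyskerin, the pseudouridine synthase (chrX:75095854-75109777). It read 16589, 18328 and 19228 in wild type and 7369, 8312 and 8169 in the mutant, a log2 change of -1.18 ± 0.10 (limma adjusted p = 0.000113). Nhp2, which binds the guide RNA, read 6793, 7994 and 7599 against 4407, 3512 and 3555, and its log2 change was -0.97 ± 0.12. Gar1 read 3443, 3771 and 4139 against 2106, 1983 and 1988, with a change of -0.90 ± 0.11. These subunits were separated in every library. Nop10, the smallest subunit, read 14028, 15116 and 14048 against 9727, 6962 and 7185. Mutant library 1 was the highest of its mutant values but still below wild type, and the log2 change was -0.87 ± 0.13 (limma adjusted p = 0.00171).

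Mean levels per length put the 7 core genes in the same order in both genotypes, though some neighbours overlapped. In normalised reads per kilobase of the longest principal transcript, wild-type levels were 15984 ± 902 for Nop56, 12982 ± 561 for Nop10, 9302 ± 681 for Fbl, 8847 ± 1179 for Nop58, 7161 ± 588 for Nhp2, 6437 ± 478 for Dkc1 and 2977 ± 274 for Gar1 (SD, n = 3). The ranges of Fbl and Nop58 overlapped in wild type, as did those of Nhp2 and Dkc1. Mutant levels were 10407 ± 649, 7176 ± 1385, 5009 ± 141, 4553 ± 438, 3671 ± 484, 2835 ± 181 and 1594 ± 55.0 for the same genes. Nop58 and Nhp2 overlapped there, since in mutant library 1 Nhp2 was at 4229 and Nop58 at 4048.

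**Figure D3:**
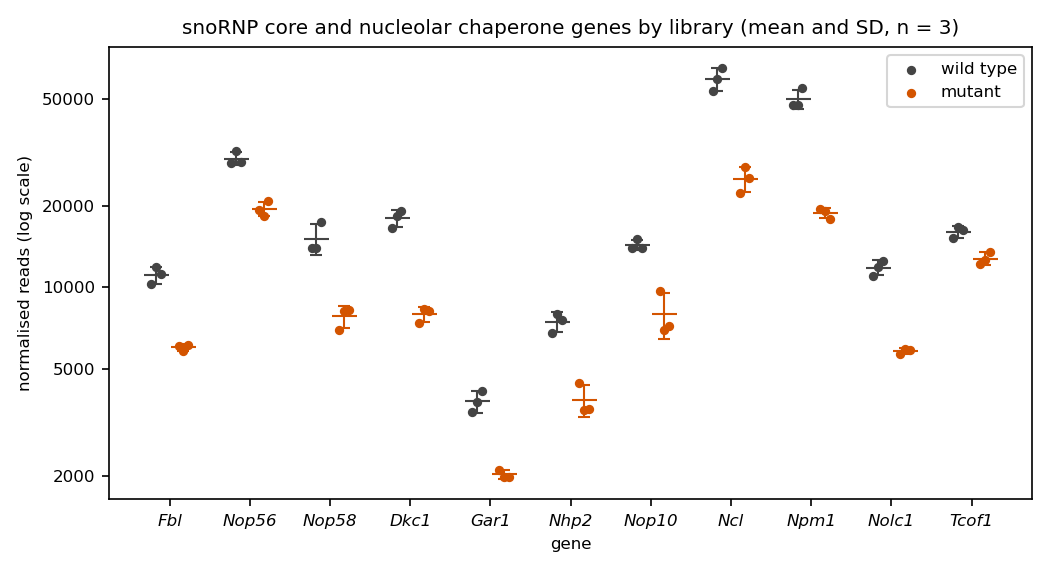
Normalised reads (log scale) of the 7 snoRNP core genes and of 4 nucleolar chaperone and scaffold genes in each library, with mean and SD of 3 libraries. Mutant points lie below wild-type points for each of the 11 genes, and Tcof1 shows the narrowest gap.

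Several of the genes also carry snoRNA genes in their introns. In GENCODE M21, 7 of the 60 hold 21 snoRNA genes, with 5 in Nop56, 4 in Nop58, 3 each in Wdr43, Gnl3 and Ncl, 2 in Tsr1 and 1 in Dkc1. Both the C box TGATGA and the D box CTGA, in these letters, were found in 10 of the 21. Snora75 in Ncl and Gm25520 in Dkc1 hold neither. The sequences of 4 of the 10 show how hosts of the pathway carry guides for its first step. The C box and the last CTGA, the D box, are in capitals.
Snord110 in Nop56, chr2:130275506-130275573, plus strand: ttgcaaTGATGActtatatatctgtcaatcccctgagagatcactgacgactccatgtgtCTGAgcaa
Snord92 in Wdr43, chr17:71631281-71631365, plus strand: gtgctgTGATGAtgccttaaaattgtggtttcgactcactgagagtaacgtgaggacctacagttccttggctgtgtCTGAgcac
Snord69 in Gnl3, chr14:31014287-31014366, minus strand: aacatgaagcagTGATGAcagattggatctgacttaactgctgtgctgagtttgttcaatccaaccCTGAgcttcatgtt
Snord82 in Ncl, chr1:86356261-86356330, minus strand: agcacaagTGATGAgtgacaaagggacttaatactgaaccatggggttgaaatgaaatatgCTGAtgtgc
Of the 21, 9 were listed and 6 were abundant enough to be tested, and none passed. Snord110 read 106, 46.8 and 33.8 in wild type and 32.7, 39.8 and 105 in the mutant, which overlapped (log2 change -0.10 ± 0.53, limma adjusted p = 0.918). Snord92 read 26.5, 22 and 29.4 against 13.7, 9.96 and 27.6 (log2 change -0.69 ± 0.49, limma adjusted p = 0.358). Gm26287 in Nop58 changed by -1.06 ± 0.58 (limma adjusted p = 0.225) and Snord53 in Wdr43 by -0.75 ± 0.41 (limma adjusted p = 0.226). Each of the 6 tested had an estimate below 0. At these levels the error spans the change of the hosts, so a like fall was not detectable, and reads of a snoRNA cannot be told apart from those of its unspliced host.

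The small-subunit processome cuts and folds the 18S part of the precursor. Of its 23 genes 19 fell, with a median log2 change of -0.63. Wdr43, a subunit of the UtpA complex that joins the precursor first (chr17:71615895-71659031), read 14303, 14711 and 15687 in wild type and 7876, 8302 and 8620 in the mutant. Its log2 change was -0.85 ± 0.09 (limma adjusted p = 0.000327). Nat10, which acetylates cytidines of the 18S RNA, read 5142, 5833 and 6414 against 2498, 2704 and 2966. It fell most within the step, by 1.09 ± 0.12 on the log2 scale (limma adjusted p = 0.000364).

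Several genes of the step form named complexes. All 5 UtpA genes (Heatr1, Wdr43, Utp4, Wdr75 and Utp15) fell, with log2 changes from -0.91 to -0.70 and a median of -0.84. All 6 UtpB genes (Wdr36, Pwp2, Wdr3, Utp6, Tbl3 and Utp18), a complex that contacts the start of the precursor and the U3 snoRNA, also fell, from -0.73 to -0.56 with a median of -0.62. The difference between the complexes was not tested. Rrp9, a protein specific to the U3 snoRNP, changed by -0.69, and Utp20, a long scaffold, by -0.81. Utp11 (-0.42, limma adjusted p = 0.0339) and Ddx10 (-0.46, limma adjusted p = 0.0171) passed by the narrowest margins of the step. Utp11 lost its call when any library except mutant 1 was left out (limma adjusted p 0.0665 to 0.1), and Ddx10 without wild-type library 3 (limma adjusted p = 0.0574).

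The 4 genes that did not pass all belong to this step. Imp3 and Imp4 bind Mpp10 and guide the pairing of U3 with the precursor. Imp3 read 3535, 3533 and 3054 in wild type and 3100, 2869 and 2800 in the mutant, so the groups overlapped through wild-type library 3. The log2 difference was -0.21 (95% interval -0.44 to 0.03, limma adjusted p = 0.209). Imp4 read 7584, 7749 and 7783 against 6507, 6382 and 7078, without overlap, and its interval was -0.41 to -0.01 (limma adjusted p = 0.129). Their partner Mphosph10, which is outside the 60, fell by 0.57 ± 0.10 on the log2 scale (limma adjusted p = 0.00373). Among the DEAD-box helicases, which unwind RNA, Ddx47 read 7353, 7903 and 8179 against 6897, 6565 and 5717 (interval -0.52 to -0.06, limma adjusted p = 0.076). Ddx52 read 2977, 3288 and 3564 against 3087, 3368 and 2982, and the groups were interleaved. Its interval, -0.30 to 0.19 (limma adjusted p = 0.758), lay above the median change of the 60 genes, and with equal totals its change was 0.0031, so that its sign flipped. Across both subunits 5 of 7 helicase genes fell, with Ddx21 at -0.82, Ddx18 at -0.69, Ddx56 at -0.60, Ddx27 at -0.58 and Ddx10 at -0.46.

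All 6 genes of the later pre-40S particle fell, with a median log2 change of -0.75. Tsr1, which occupies the factor-binding site of the immature small subunit (chr11:74898071-74909342), read 3360, 3821 and 4138 in wild type and 1984, 2170 and 2191 in the mutant (log2 change -0.83 ± 0.11, limma adjusted p = 0.00112). Pno1 read 2836, 3172 and 3548 against 1776, 1956 and 1765 (-0.79 ± 0.12, limma adjusted p = 0.00172). Pno1 is the partner of Nob1, the nuclease that makes the final cut of 18S RNA. Nob1 read 6420, 6526 and 6256 against 4677, 4066 and 4156, a change of -0.58 ± 0.10. Rrp12, an export factor, had the largest change of the step at -1.09 ± 0.16, and Ltv1 the smallest at -0.52 ± 0.10, with Bysl at -0.70.

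All 20 genes of large-subunit assembly fell, 5 of them at least 2-fold, with a median log2 change of -0.83. Gnl3 encodes nucleostemin, a GTPase of the nucleolus (chr14:31012433-31019152). It read 12841, 13045 and 12436 in wild type and 5174, 4300 and 5831 in the mutant, 2.5-fold lower (log2 change -1.33 ± 0.12, limma adjusted p = 0.000149). Noc2l of the Noc complex (chr4:156236010-156247616) read 15520, 16933 and 17340 against 7994, 7327 and 8216 (-1.08 ± 0.09, limma adjusted p = 0.000147). Its partner Noc3l read 1523, 1468 and 1627 against 796, 763 and 1047 (-0.84 ± 0.15). Every mutant library was below wild type for all 3 genes.

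The PeBoW complex, which is required for processing of the large-subunit RNA, fell in all 3 of its subunits. Wdr12 read 8686, 9563 and 9564 in wild type and 4524, 4531 and 4110 in the mutant (log2 change -1.08 ± 0.10). Pes1 read 6972, 7284 and 7153 against 4060, 4197 and 3898 (-0.82 ± 0.09). Bop1 read 7967, 10016 and 9209 against 6294, 5925 and 5659 (-0.60 ± 0.11), the smallest change of the complex. Rrs1 and Rpf2 bring the 5S RNA particle into the large subunit. Rrs1 read 5026, 5672 and 5825 against 2750, 2790 and 3095 (-0.94 ± 0.10), and Rpf2 read 4867, 5182 and 5347 against 3452, 3394 and 3436 (-0.58 ± 0.09). Both were separated between genotypes. Among the rest, Rrp1b (-1.06), the chaperone Grwd1 (-1.05), Nop16 (-1.0), the methyltransferases Nop2 (-0.96) and Ftsj3 (-0.81), Nifk (-0.85), Mrto4 (-0.83), which holds the place of the ribosomal stalk, Ebna1bp2 (-0.75) and Brix1 (-0.59) fell.

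Ratios between partners were compared because subunits of a complex need not change alike. Of the 11 ratios, 4 did not overlap between genotypes. Wdr12 over Bop1 was 1.03 ± 0.0683 in wild type and 0.737 ± 0.0246 in the mutant. Pes1 over Bop1 was 0.793 ± 0.0753 and 0.681 ± 0.0324, Rrs1 over Rpf2 was 1.07 ± 0.0343 and 0.840 ± 0.0543, and Noc2l over Noc3l was 10.8 ± 0.683 and 9.16 ± 1.16 (SD, n = 3). Each had p = 0.1 in the exact two-sided permutation test, the smallest that 3 against 3 libraries allow, and 0.275 after adjustment over the 11 ratios, so none passed. The other 7 overlapped, among them Imp3 over Imp4 (0.438 and 0.441), Nop56 over Nop58 (2.01 and 2.52) and Npm1 over Ncl (0.842 and 0.754).

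**Figure D4:**
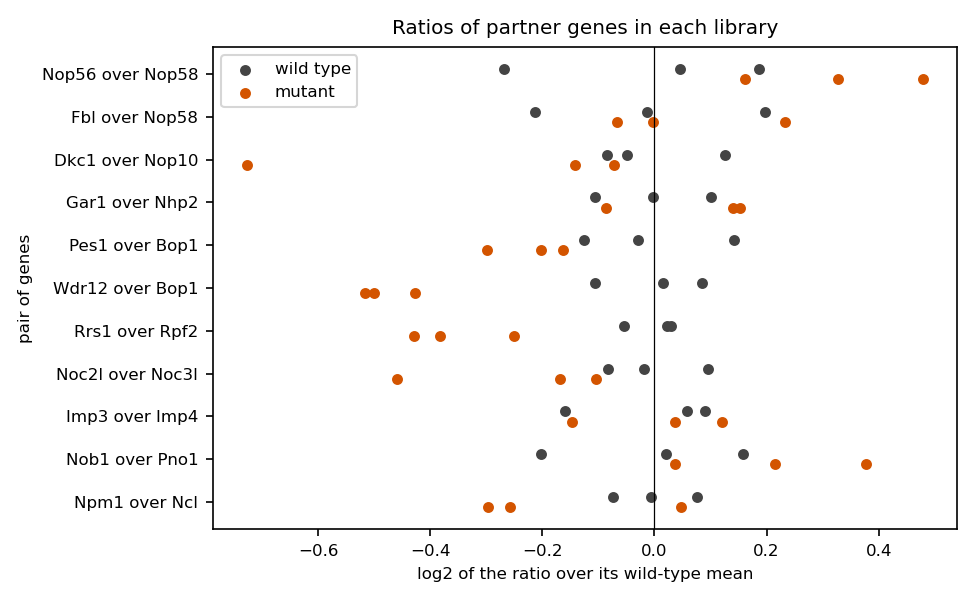
Log2 of 11 ratios of partner genes in each library, relative to the wild-type mean of the ratio. For Wdr12 over Bop1, Pes1 over Bop1, Rrs1 over Rpf2 and Noc2l over Noc3l the 3 mutant points lie left of the 3 wild-type points, and for the other 7 ratios the groups overlap.

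The 4 nucleolar chaperone and scaffold genes fell, with a median log2 change of -1.13, from the largest change of the 60 in Npm1 to a small one in Tcof1. Npm1 encodes nucleophosmin, the chaperone of the outer nucleolus (chr11:33152287-33163206). It read 47431, 47508 and 54774 in wild type and 19550, 19141 and 17971 in the mutant. The fall was 2.64-fold (log2 change -1.40 ± 0.09, limma adjusted p = 4.22e-05). Ncl encodes nucleolin, which binds the nascent precursor (chr1:86344719-86359400). It read 53452, 59346 and 65307 against 22450, 27913 and 25498, a 2.35-fold fall (-1.23 ± 0.11, limma adjusted p = 0.000149). Nolc1, whose product Nopp140 binds snoRNPs, read 11036, 11945 and 12538 against 5661, 5908 and 5883 (-1.02 ± 0.09). The groups stood far apart for all 3 genes. Tcof1, whose product treacle links polymerase I transcription to processing, read 15204, 16809 and 16297 against 12162, 12603 and 13565. It changed by -0.33 ± 0.09 (limma adjusted p = 0.0278) and did not pass with equal totals (limma adjusted p = 0.0569) or without wild-type library 2 or 3 or mutant library 1 or 2 (limma adjusted p 0.0599 to 0.125).

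Genes of the same steps outside the 60 were also mostly below wild type. The 60 were chosen with earlier results of these data known, and the difference between them and the other genes was not tested. Of 101 such genes tested in 4 lists, 56 fell and none rose, with a median log2 change of -0.42. Over all tested genes 10.9% fell and 7.94% rose. Other snoRNP proteins and assembly factors fell in 8 of 11, led by the paired ATPases Ruvbl2 (-0.90) and Ruvbl1 (-0.73), with Shq1, the dyskerin chaperone (-0.69), and Snu13, which binds the C/D motif (-0.55). Other small-subunit factors fell in 13 of 29, with a median of -0.37, among them Rcl1 (-0.92), Nop14 (-0.68) and Aatf (-0.73). Other large-subunit factors fell in 26 of 40, with a median of -0.44, among them Mybbp1a (-1.16), Rsl1d1 (-0.91), Rrp15 (-0.86) and Nol9 (-0.78). Zfp622, which acts late in the cytoplasm, was at 3146 ± 311 and 3232 ± 665 (limma adjusted p = 0.932). The RNA exosome and the trimming enzymes fell in 9 of 21, with a median of -0.34, among them the RNase P and MRP subunits Pop1 (-0.98) and Rpp40 (-0.83) and the exosome genes Exosc1 (-0.65) and Exosc2 (-0.61). Without wild-type library 2, 15 large-subunit factors and 5 exosome and trimming genes fell, and over all tested genes 1086 fell.

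**Figure D5:**
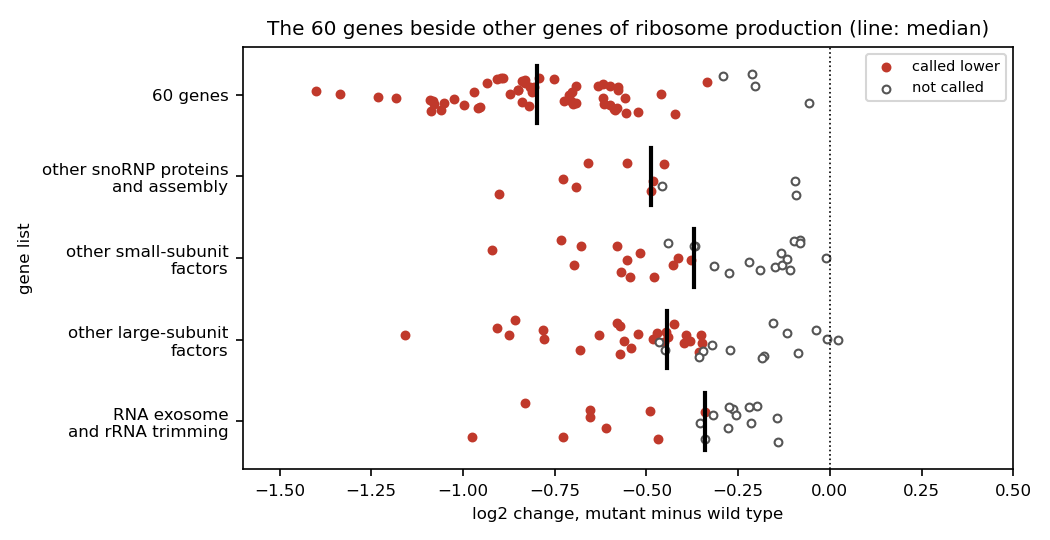
Log2 change (mutant minus wild type) of the 60 genes and of 4 lists of other ribosome-production genes, with a black line at each median; filled points fell at an adjusted p of 0.05 and open points did not pass. The median is -0.80 for the 60 genes and lies between -0.49 and -0.34 for the other lists, and 1 point, Zfp622, lies right of 0.

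Some of these genes overlap a gene on the other strand, and the library kit does not record strand. The overlap covered 37.3% of the exons of Tbl3 (with Noxo1), 32.3% of Tsr1 (with Srr), 20.9% of Noc2l (with Samd11), 15.7% of Wdr3 (with Spag17), 11.5% of Utp14a (with a lincRNA) and 9.4% of Bysl (with Ccnd3). Noxo1 and Samd11 were at means of at most 35 normalised reads in either genotype, and Srr was at 628 in wild type and 795 in the mutant. Ccnd3 was at 18371 and 32186, higher in the mutant, where Bysl was lower, so reads that the counting may have shared between the pair cannot be told apart. Of pseudogene copies, Mrto4-ps1 and Mrto4-ps2 were listed, each at most 165 normalised reads in any library.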

How the data were processed

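RNA was measured in 6 libraries, made with the SMART-Seq v4 and Nextera XT kits per the labels' protocols, which do not keep the strand. The submitters' processing notes name the tools STAR 2.5.3, featureCounts and DESeq2 1.20.0, with the builds GRCm38 and mm10. The annotation release, like the options of counting, is not given in the sources used here. What the authors deposited is a signal, the read count of a gene over a size factor of its library. Each of 126810 values came out as whole reads (100% within 0.1 reads), each gene having at least 20 reads over the libraries. Reads per library were 38.6 to 51.3 M. Symbols came from GENCODE M21, with 21100 of 21135 genes named and 0.008% of reads in the rest.

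Genotypes were compared with limma 3.58.1 in R 4.3.3 (lmFit, eBayes with trend) on log2(value + 1) as the mutant's level less that of wild type. The 17815 genes whose mean reached 10 were tested, two-sided, with Benjamini-Hochberg adjustment over all tested genes at 0.05. Every adjusted p is from this fit unless another is named, errors of log2 changes are standard errors, and fold changes on this scale understate those of rare transcripts. On the recovered reads edgeR 4.0.16 called 3283 genes and DESeq2 1.42.0 called 4168. The script was tested on simulated data. Libraries of a group differed beyond the sampling noise of their reads, so none was treated as 1 library deposited again; this does not show that they are separate animals. The members and all lists were chosen with earlier results of these data known, so no p over a list is given. Values in each library are given for the 2 genes of lowest p in a step, for genes that did not pass and for partners in a ratio. Of the other lists, up to 4 genes of lowest p and any that moved the other way are named. Alternatives were other scalings, pseudocounts, filters and tests, a replicate block and leaving out each library. Protein sequences were not used here. The result of 1 marker list is not reported here.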

Additional observations from a re-analysis of the deposited data

How the results depend on the processing

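Of the 60 genes, 57 kept their call under all 19 alternatives, and Utp11, Tcof1 and Ddx10 lost it under at least 1. Between 53 and 55 genes fell when 1 library was left out, and their median log2 change then ranged from -0.83 to -0.72. Over all tested genes, leaving out 1 library gave 1905 to 2788 calls, 1086 to 1780 lower and 819 to 1176 higher, lowest without wild-type library 2, against 3352, 1938 and 1414. Large-subunit factors outside the 60 then numbered 15 to 23 lower and exosome and trimming genes 5 to 9. Fewer libraries were tested there. With library weights 14 exosome and trimming genes fell against 9, and the cause was not tested. The log2 change of Ddx52 turned to 0.0031 with equal totals, and ranged from -0.1238 to 0.0061 when 1 library was left out, highest without wild-type library 3. The log2 ratio of Fbl over Nop58 ranged from -0.0375 to 0.167 and that of Imp3 over Imp4 from -0.0699 to 0.0829 when 1 library was left out, and the turns without other libraries were -0.0256 for the first and -0.051 and -0.0093 for the second. The share of reads without Npm1 and Ncl was 0.953% and 0.587%. In the 250 bases before the start alone, CACGTG was found in 8.0% and CCGGAAG in 26.0% of the matched genes, against 9.62% and 15.4% of tested genes. In the 50 bases after it, a window chosen after the positions had been seen, CCGGAAG was found in 18% against 5.24%. With edgeR and with DESeq2, 56 of the 60 genes fell.

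With the replicate number as a block, 55 of the 60 genes fell and 3066 genes were called in all, against 56 and 3352. Same-numbered libraries of the genotypes did not deviate together (correlations -0.022, -0.066 and -0.01), and differently numbered ones ranged from -0.064 to 0.096. The labels do not say what the numbers pair. Whether same-numbered libraries share more than a number cannot be told from 3 libraries per genotype. The pairing took 1 call among the 60, that of Utp11 (log2 change -0.42, limma adjusted p = 0.0532). Low values limit the snoRNA genes, whose highest value in any library was 106 normalised reads, and the cause was not tested.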
